A study of Mus musculus with 9 samples.

Results

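The response of B16F10 cells, a line from a pigmented mouse melanoma, to interferon gamma (IFNg) was measured across all expressed genes, with attention to genes outside the classical interferon lists and to genes that fell. The libraries were 3 of cells kept in media and 3 of cells given IFNg at 50 ng/mL for 6 h, which are 6 of the 9 libraries of the series. The other 3 received the same IFNg with 50 nM FK866, an inhibitor of the NAD salvage enzyme NAMPT, and entered the model to estimate the spread. All 9 are of the same line with no further genotype or allele named, and the protocol is worded for mouse or human IFNg alike without saying more per library. Each group has a library numbered 3, 4 and 5 in the labels. Whether the numbers stand for separate cultures or days is not given in the sources used here, so p-values measure the spread between these libraries. Of 55487 genes in the count table, 15237 passed the filter on low counts and were tested. Of these, 288 belonged to 8 lists of classical interferon genes (GTPases, antiviral genes, antigen presentation, JAK-STAT and IRF regulators, chemokines) and 14949 did not.

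The 6 libraries held between 15470783 and 17760231 counts. Levels are CPM, counts scaled to library size by TMM, and folds were fitted by edgeR's quasi-likelihood test with the number as a block. A gene was called where its Benjamini-Hochberg adjusted p over all 15237 genes was below 0.05. The SE given with a log2 fold change was not fitted directly. It is the size of that change divided by the square root of the test's F statistic. The treatment was visible in every library: Irf1, a transcription factor gene induced early by the receptor, was at 20.6, 17.3 and 14.0 CPM in media and 762, 826 and 773 CPM with IFNg. The cells carried the transcripts of their lineage, with 8 melanocyte markers summing to 17720 to 18870 CPM in media and 15890 to 17040 CPM with IFNg. Of 17 leukocyte markers 13 had no count in any of the 6 libraries, Ptprc, Cd3e and Itgam among them, and the list summed to 3.68 to 12.6 CPM in media and 3.22 to 11.6 CPM with IFNg. Fibroblast markers summed to 12.9 to 19.4 CPM in media and 8.35 to 12.2 CPM with IFNg, with Thy1 at 0. Endothelial markers summed to at most 3.04 CPM in either group, with Cdh5, Kdr, Tek and Emcn at 0. Of 6 keratinocyte markers 5, Krt5 and Krt14 among them, were at 0. In a bulk sample, fewer cells of a type and less RNA per cell cannot be told apart.

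Interferon gamma binds its receptor on the cell surface, and receptor-bound JAK kinases then activate a STAT dimer that binds the GAS element, an inverted repeat in target promoters. IRF1 is among the first genes made, and with other IRF factors it binds the ISRE and drives a second set. In pigment cells, the helix-loop-helix factor MITF is the master regulator of the lineage and binds E-box and M-box elements, in pigment genes among others.

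The elements named above could be looked for in the promoters of the genes that moved. Promoters were taken from RefSeq on GRCm38.p6 as the 250 bases before to 50 bases after each start, and 4 motifs were searched on both strands: the GAS letters TTCNNNGAA, the ISRE core GAAANNGAA, the E-box CACGTG and the M-box CATGTG. The windows below are from named genes that were called. They were chosen with their matches known, to show a motif upstream of a gene that rose or fell. The capitals mark the matches, and each window reads 5′ to 3′ on the gene's strand upstream of its start. The first set has GAS matches in genes that rose. The Irf1 match ended 81 bases before its start, and the Bcl6 promoter shown held 3 matches that ended between 79 and 159 bases before the start.
Irf1 (chr11:53769894-53769962, plus strand): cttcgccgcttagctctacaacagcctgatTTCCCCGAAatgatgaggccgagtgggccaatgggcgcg
Bcl6 (chr16:23981333-23981481, minus strand): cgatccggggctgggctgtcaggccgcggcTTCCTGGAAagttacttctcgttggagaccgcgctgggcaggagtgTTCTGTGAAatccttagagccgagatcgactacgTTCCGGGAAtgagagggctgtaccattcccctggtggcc
Sbno2 (chr10:80101188-80101241, minus strand): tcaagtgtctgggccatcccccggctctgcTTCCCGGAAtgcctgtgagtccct
Tnfrsf1a (chr6:125349473-125349517, plus strand): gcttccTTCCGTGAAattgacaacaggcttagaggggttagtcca

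The second set has ISRE core matches in genes that rose, Cd274 of the classical lists and Clec2d and Serpinb9 outside them. Clec2d encodes a C-type lectin-like ligand of natural killer cell receptors, and Serpinb9 encodes an inhibitor of granzyme B.
Cd274 (chr19:29367332-29367400, plus strand): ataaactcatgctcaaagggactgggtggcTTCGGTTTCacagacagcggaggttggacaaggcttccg
Clec2d (chr6:129180396-129180464, plus strand): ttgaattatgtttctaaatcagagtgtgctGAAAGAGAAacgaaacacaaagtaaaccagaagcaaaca
Serpinb9 (chr13:33004466-33004534, plus strand): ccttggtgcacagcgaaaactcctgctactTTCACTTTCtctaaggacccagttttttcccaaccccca

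The third set has E-box matches in genes that fell. E-boxes also lay upstream of genes that rose, Ralgds and Bcl6 among them, and GAS letters lay upstream of Lyst, which fell. Bhlhe41 encodes a clock repressor that itself binds E-boxes, and Met encodes the receptor of hepatocyte growth factor. The Klf15 promoter held 2 matches. Without the number as a block, the falls of Klf15, Adam19 and Met did not pass the test.
Bhlhe41 (chr6:145865538-145865603, minus strand): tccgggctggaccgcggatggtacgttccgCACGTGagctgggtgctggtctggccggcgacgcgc
Klf15 (chr6:90462326-90462439, plus strand): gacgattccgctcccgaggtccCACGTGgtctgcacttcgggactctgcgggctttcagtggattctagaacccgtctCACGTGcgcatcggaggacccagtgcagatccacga
Adam19 (chr11:46054342-46054407, plus strand): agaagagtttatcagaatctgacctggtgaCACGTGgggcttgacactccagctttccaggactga
Met (chr6:17463801-17463866, plus strand): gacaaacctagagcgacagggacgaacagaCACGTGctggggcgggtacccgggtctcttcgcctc

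Promoter matches differed in share with the direction of the response. The GAS letters were found in 16.8% of 203 promoters of classical genes that rose, in 12.3% of 293 promoters of other genes that rose at least 2-fold, and in 10.2% of 728 promoters of other genes that rose by less. They were found in 6.35% of 10490 promoters of genes not called, in 3.74% of 909 promoters of genes that fell, and in 8.30% of all 32851 promoters. The ISRE core was in 37.9% of the promoters of the classical genes that rose, in 12.6% of those of other genes that rose at least 2-fold, in 7.14% of those that rose by less, in 6.37% of those not called and in 5.17% of those that fell. The E-box ran the other way, from 3.94% in the classical genes that rose, through 8.87% in other genes that rose at least 2-fold and 10.1% in genes not called, to 11.2% in genes that fell. Of the 62 promoters of genes that fell at least 2-fold, 10 held an E-box, which is 16.1%. The same 62 promoters held the ISRE core in 5 cases (8.06%) and GAS letters in 2 (3.23%). The M-box was in 10.3% of promoters of classical genes that rose, in 9.22% of those of other genes that rose at least 2-fold, in 8.39% of those of genes not called and in 9.46% of those of genes that fell, so it did not follow the direction of the response. A match is a description of the letters in the window. Some genes have several promoters, base composition differs between the sets of promoters, and its part in the shares was not tested.

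**Figure D1:**
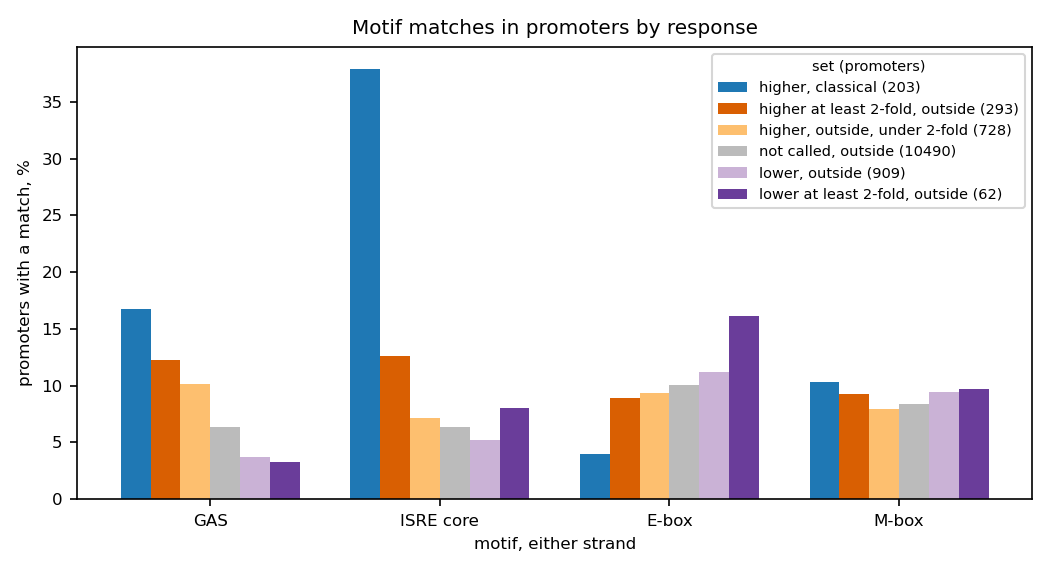
Share of promoters (percent, vertical axis) with a match to each of 4 motifs on either strand, in promoters grouped by the response of their gene, with the number of promoters in the legend. GAS and ISRE core shares step down from the classical genes that rose to the genes that fell (16.8% to 3.74% for GAS), except that the ISRE core share of genes that fell at least 2-fold is 8.06%, and the E-box share is lowest in the classical genes that rose, at 3.94%.

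IFNg raised 1237 genes and lowered 936, which are 8.12% and 6.14% of the genes tested. The rise reached 2-fold in 501 genes (3.29%) and the fall in 97 (0.637%). All 3 IFNg libraries lay above all 3 media libraries in 1215 of the genes tested (7.97%) and below them in 892 (5.85%), called or not. Among the called genes the groups were apart in 870 of the 1237 rises and in 472 of the 936 falls. In the other called genes they overlapped. Within each number, the IFNg library was higher than the media library for 1222 of the 1237 genes that rose, in all 3 numbers, and lower for 933 of the 936 that fell. Of the 288 classical genes 204 rose and 3 fell. These were Ifngr2, a chain of the IFNg receptor (log2 fold change -0.34, SE 0.07), the lysosomal reductase Ifi30 (-0.26, SE 0.07) and the protein C receptor Procr (-0.36, SE 0.11), named because no other classical gene fell in this test. By the same edgeR test, the adjusted p of Ifi30 was 0.111 without the media library of number 4 and 0.154 without number 4. That of Procr was above 0.05 without any single media or IFNg library, up to 0.205 without the IFNg library of number 3. In DESeq2 the adjusted p was 0.0507 for Ifi30 and 0.0985 for Procr. The adjusted p of Ifngr2 in edgeR was 0.0505 without number 4. All other 933 genes that fell, and 1033 of those that rose, were therefore outside the lists. The balance of rises and falls depends on the scaling: 56.9% of calls were rises under TMM and 45.9% under upper-quartile scaling, where 1110 genes rose and 1311 fell. Under TMM the median log2 fold change of all genes was -0.01, and under upper-quartile scaling -0.05. No gene called under TMM changed sign in the calls of any other setting.

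Rises and falls outside the lists differed in size and in starting level. A gene near 0 counts in media can rise but has little room to fall, and small folds are harder to call at low counts. Of all genes tested 2091 (13.7%) were below 1 CPM in media, and of the 933 falls 7 were. The part of such limits in the contrast was not tested. The 1033 rises had a median of 1.5-fold from a median media level of 26.4 CPM, and the 933 falls a median of 1.33-fold from 46.4 CPM. Of the 335 rises of at least 2-fold, 157 started below 1 CPM, and the median media level was 1.26 CPM. In 17 genes outside the lists that rose, no media library had a count. The 97 falls of at least 2-fold started from a median of 3.98 CPM, and 53 of them were protein-coding. Most falls were thus modest drops of moderately to well expressed genes: 836 of 933 were less than 2-fold. The falls were of like size in each number, with a median log2 difference of -0.39, -0.44 and -0.40 in numbers 3, 4 and 5. For the 335 rises of at least 2-fold these medians were 1.31, 1.47 and 1.26, and over all genes they lay between -0.02 and 0.00.

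**Figure D2:**
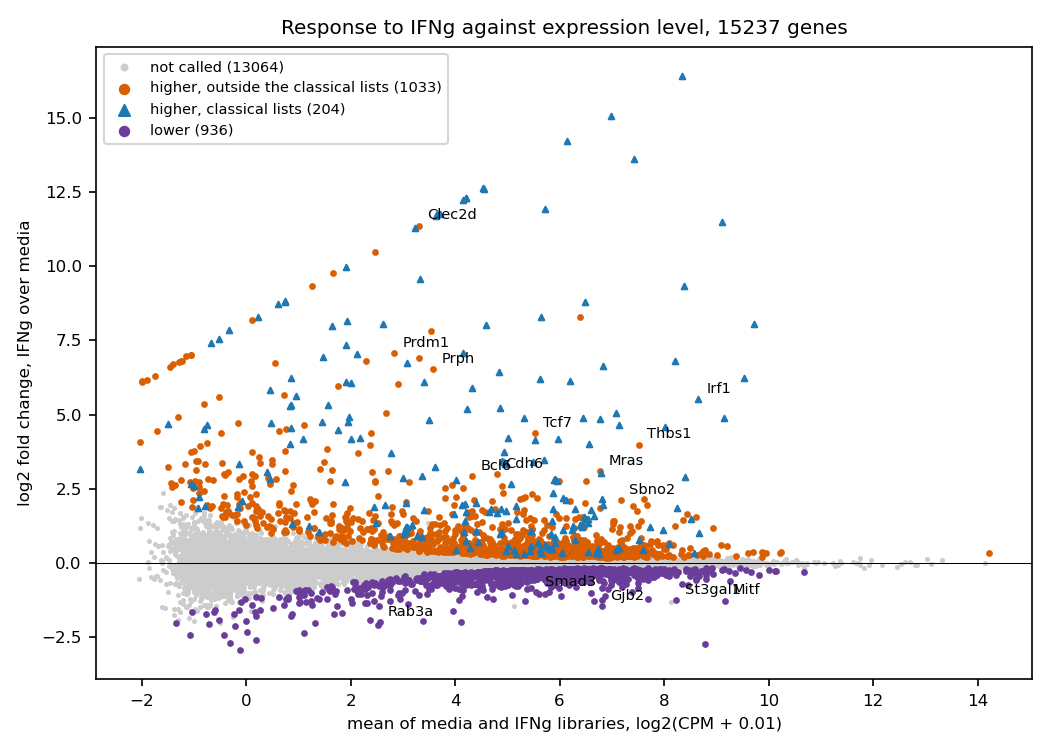
Log2 fold change of IFNg over media (vertical axis) against mean level over the 6 libraries as log2(CPM + 0.01) (horizontal axis), one mark per gene, for all 15237 genes. Few of the 936 genes that fell (purple) lie beyond 2-fold, and of the 933 outside the lists 7 were below 1 CPM in media. The 1033 rises outside the classical lists (orange) reach further and most of the extreme ones start near 0.

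The largest rises outside the lists, among genes of at least 5 CPM over the 6 libraries with groups apart, predicted genes, Riken clones and pseudogenes left out, were of transcription factors, cytoskeletal and RAS-family signalling genes, and surface and secreted proteins. Clec2d had no count in any media library and was at 19.4, 17.5 and 22.2 CPM with IFNg, at least 335-fold higher against a floor of 3 counts over the media group. Its IFNg libraries were close to each other. Ifi47, which encodes an IFN-inducible GTPase that the classical lists lacked, rose from 0.314, 0.274 and 1.01 CPM to 116, 186 and 197 CPM. Olfr56 rose from 0, 0.164 and 0.119 CPM to 12.6, 32.2 and 24.8 CPM, but this olfactory receptor gene overlaps an induced classical gene, Gm12185, on the opposite strand. Whether counting used the strand is not given in the sources used here, so reads of the pair cannot be told apart.

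Both Prdm1, which encodes the repressor BLIMP-1, and Bcl6, which encodes a repressor known to oppose it in B cells, were among them. Prdm1 was at 0.126, 0.110 and 0.0597 CPM in media and at 16.2, 17.2 and 8.83 CPM with IFNg. Bcl6, whose promoter is printed above, rose from 5.40, 5.20 and 3.46 CPM to 37.8, 38.3 and 29.7 CPM (log2 fold change 2.91, SE 0.10, adjusted p 8.42e-15). Tcf7, which encodes the WNT pathway factor TCF1, rose from 3.64, 4.38 and 4.66 CPM to 60.5, 104 and 100 CPM (4.38, SE 0.10). Zfp455, a zinc finger protein gene, rose from between 1.32 and 1.53 CPM to between 8.43 and 10.4 CPM.

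Among structural and signalling genes, Prph, which encodes the neuronal intermediate filament peripherin, rose from at most 0.329 CPM in media to 18.1, 30.6 and 22.4 CPM. Cdc42ep2, which encodes an effector of the GTPase CDC42, rose from 0.377, 0.438 and 0.298 CPM to 12.6, 12.1 and 12.7 CPM (log2 fold change 5.04, SE 0.23). Its 3 IFNg libraries differed little. Mras, which encodes a RAS-related GTPase, rose from 23.5, 21.1 and 24.4 CPM to 189, 181 and 219 CPM (3.09, SE 0.07, adjusted p 2.31e-18). Ralgds, which encodes the exchange factor that links RAS to RAL, rose from 31.4, 24 and 15.4 CPM to 178, 169 and 127 CPM (2.77, SE 0.08). Rnf19b, which encodes a RING-type ubiquitin ligase, rose from between 14.7 and 17.8 CPM to between 93.0 and 129 CPM.

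Among secreted and surface proteins, Thbs1, which encodes the matrix protein thrombospondin 1, rose from 28.9, 12.8 and 23.6 CPM to 488, 242 and 301 CPM (log2 fold change 3.98, SE 0.09, adjusted p 9.10e-18). By the same rule it had the largest rise outside the lists at 100 CPM or more over the 6 libraries. Sema3g, which encodes a secreted guidance protein, rose from 0.314, 0.548 and 0.955 CPM to 4.67, 13.5 and 11 CPM. Cdh6, which encodes the adhesion protein cadherin 6, rose from between 5.97 and 6.46 CPM to 42.1, 61.3 and 44.9 CPM (2.99, SE 0.11). At a mean of at least 100 CPM, the next largest rises after Thbs1 and Mras were of Snx10, Sbno2 and Tubb3. Snx10, a sorting nexin gene of the endosome, rose from 82.2, 74.0 and 62.0 CPM to 346, 333 and 280 CPM. Sbno2, a transcriptional coregulator gene, rose from 58.9, 61.5 and 41.4 CPM to 271, 277 and 157 CPM. Tubb3, which encodes a beta-tubulin of neurons, rose from between 69.2 and 95.7 CPM to between 243 and 387 CPM.

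**Figure D3:**
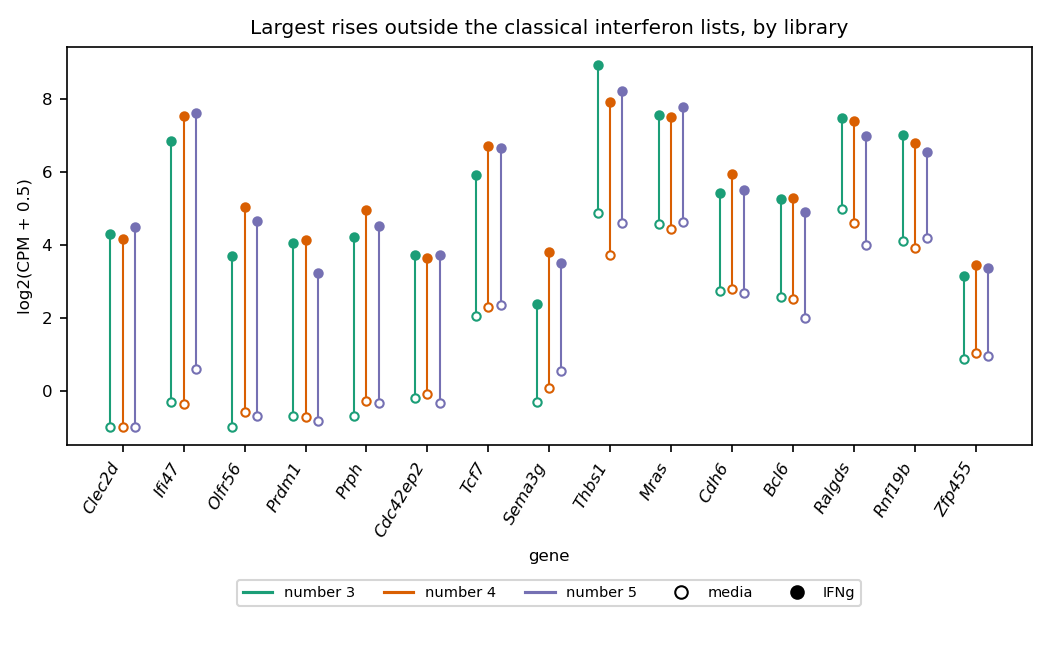
Levels as log2(CPM + 0.5) (vertical axis) of the 15 genes with the largest rises outside the classical lists among called genes of at least 5 CPM with groups apart, predicted genes, Riken clones and pseudogenes left out, in the media library (open) and the IFNg library (filled) of each number, joined within the number. The genes were chosen with their groups apart, so the gap between open and filled points is fixed by the choice; Clec2d starts from 0 counts.

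Factors of the AP-1, ATF and C/EBP type, which bind DNA as leucine-zipper dimers and follow stress and cytokine signals, had the largest share of rises among the lists outside the classical ones. Of 34 tested, 15 rose (44.1%) and 2 fell (5.88%), and the median log2 fold change was 0.24. Counts in this and the lists below are to be read beside the shares over all genes tested, of which 8.12% rose and 6.14% fell. The falls, of Mafg and Jund (-0.22, SE 0.06, and -0.25, SE 0.07), missed the test without the IFNg library of number 3, with adjusted p of 0.215 and 0.228. Crem rose from 9.10, 6.41 and 10.1 CPM to 57.1, 45.0 and 50.1 CPM (log2 fold change 2.58, SE 0.10). Atf3 rose from 3.33, 7.94 and 4.54 CPM to 22.9, 44.8 and 22.3 CPM (2.51, SE 0.11). Jun rose from 79.7, 70.2 and 63.0 CPM to 250, 182 and 144 CPM (1.40, SE 0.08). Fosl2 rose in each number as well (1.21, SE 0.08), but from such different media levels, 24.2 to 47.4 CPM, that the groups overlapped at 46.4 CPM. Of the ETS, KLF and EGR factors tested, 4 of 27 rose and 6 fell. Etv6, an ETS repressor gene, rose from between 67.3 and 75.2 CPM to between 186 and 189 CPM (1.39, SE 0.06), while the ETS factor gene Elk3 fell from between 61.6 and 73.8 CPM to between 36.4 and 44.1 CPM.

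Nuclear receptors were split, with 7 of 32 tested rising and 7 falling. Ahr, which encodes the aryl hydrocarbon receptor, a ligand-activated factor listed with them, rose from 8.47, 13.9 and 10.7 CPM to 21.9, 47.6 and 39.7 CPM. Vdr, the vitamin D receptor gene, rose from between 0.712 and 0.816 CPM to 5.00, 7.92 and 2.96 CPM. Ppard rose by a log2 fold change of 0.56 (SE 0.07). Nr4a3, an orphan receptor gene of the immediate early class, went the other way, from 114, 136 and 138 CPM to 61.3, 64.7 and 65.6 CPM (-1.02, SE 0.08, adjusted p 8.44e-09), with no overlap of the groups.

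Rises outnumbered falls in the lists of NF-kB genes and of BCL2 family members, caspases and death adaptors. Of 26 NF-kB subunits and regulators tested 8 rose and 1, Traf3, fell. Among the rises were Bcl3 and Nfkbiz, which encode nuclear IkB proteins, the kinase genes Tbk1 and Map3k8, and the deubiquitinase gene Cyld. Nfkbiz rose from 14.3, 14.0 and 8.89 CPM to 27.1, 25.4 and 17.2 CPM, and Cyld, a brake on the pathway, from between 42.4 and 49.9 CPM to between 67.2 and 80.1 CPM. Bcl3 rose in each number, but its media level in number 3, 0.314 CPM, was far below the 3.18 and 2.51 CPM of the others. Of 25 BCL2 family members, caspases and death adaptors 7 rose and 0 fell by edgeR's test, and 10 had an unadjusted p below 0.05. DESeq2 and limma-voom gave the same counts, while without the number as a block 3 rose and 0 fell. Mlkl, which encodes the pore-forming effector of necroptosis, rose from between 40.8 and 44.1 CPM to 125, 120 and 125 CPM (log2 fold change 1.53, SE 0.07). Bid, a link between death receptors and mitochondria, rose from between 14.5 and 19.5 CPM to 55.0, 35.0 and 36.5 CPM (1.29, SE 0.09), and Bak1 from between 194 and 250 CPM to between 270 and 339 CPM. Of 11 TNF superfamily members tested 2 rose and 2 fell, 18.18% each. Tnfrsf1a, the main TNF receptor gene, rose from 74.8, 64.1 and 73.5 CPM to 284, 261 and 257 CPM (1.92, SE 0.07). Tnfrsf19 fell from 14.5, 11.9 and 13.8 CPM to 6.98, 5.91 and 5.92 CPM (-1.10, SE 0.14).

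Receptors for other cytokines and for microbial ligands rose in 7 of 26 cases and fell in 2. Tlr3, which encodes the endosomal receptor for double-stranded RNA, rose from 14.9, 18.8 and 16.5 CPM to 60.4, 61.9 and 45.1 CPM (log2 fold change 1.73, SE 0.09). Il17rc rose from between 15.7 and 18.4 CPM to between 28.4 and 31.3 CPM. Osmr, which encodes the oncostatin M receptor, was at 19, 0.0548 and 11.3 CPM in media and at 65.9, 0.122 and 28.3 CPM with IFNg, so number 4 was nearly without it in both conditions. Complement and serpin genes rose in 7 of 22 cases and fell in 1. C4b, a complement component gene, rose from 0.126, 0.110 and 0.0597 CPM to 8.63, 5.06 and 6.22 CPM. Serpina3f had no count in media and was at 3.29, 7.13 and 8.47 CPM with IFNg, at least 109-fold higher. Serpinb9 rose from 8.03, 5.64 and 5.73 CPM to 24.6, 28.2 and 22.5 CPM (1.96, SE 0.12).

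Genes that control the cell's shape and surroundings moved in both directions. Of 44 RAS and RAP regulators 7 rose (15.9%), Mras and the RAP inhibitor Sipa1l2 among them, and 9 fell (20.45%), led by Rapgef3. Of 51 collagens and matrix genes tested 9 rose, each at least 2-fold, and 4 fell. Fbn1, the fibrillin 1 gene, rose from between 0.119 and 0.164 CPM to 3.75, 3.41 and 2.61 CPM, and Col16a1 from between 10.4 and 13.7 CPM to between 23.6 and 32.9 CPM. Col1a2, a fibroblast marker among them and singled out after its values were seen, fell from 5.65, 6.57 and 4.12 CPM to 1.32, 1.77 and 1.95 CPM (-1.69, SE 0.27). Of 48 ephrins, semaphorins and plexins 9 rose and 9 fell. Sema3e rose from 5.77, 9.64 and 7.82 CPM to 33.5, 31.1 and 34.9 CPM, while the membrane-bound Sema6a fell in each number, from 38.0, 88.0 and 71.3 CPM to 18.8, 43.7 and 33.6 CPM.

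Of 27 genes for MAP kinase feedback, which shut off growth signals, 6 rose and 8 fell. Dusp6, an ERK phosphatase gene, rose from 101, 65.0 and 96.3 CPM to 237, 170 and 190 CPM (log2 fold change 1.20, SE 0.07), whereas Spred2, a membrane-bound inhibitor of RAF activation, fell from between 39.8 and 43.6 CPM to between 24.6 and 26.9 CPM (-0.69, SE 0.10). In the Notch list, Notch1 rose from 27.2, 22.6 and 4.90 CPM to 72.8, 92.2 and 19.1 CPM, and Maml3, a coactivator gene of the same pathway, fell from between 16.4 and 24.7 CPM to between 8.82 and 13.9 CPM. In the WNT list 4 of 28 rose and 4 fell, 14.3% each. Axin2, a feedback target, rose together with Tcf7, from between 21.8 and 28.2 CPM to between 41.2 and 56.6 CPM (0.99, SE 0.09). Of 64 enzymes of amino acid metabolism and tRNA charging 12 rose (18.75%) and 5 fell (7.81%). The tyrosyl-tRNA synthetase gene Yars, of smallest p among them, rose from between 58.9 and 73.7 CPM to between 104 and 116 CPM. Of 55 redox enzymes 5 rose (9.09%) and 1 fell (1.82%), so the share of rises was near the 8.12% over all genes. Among them Gclm, a subunit of the glutathione-making ligase, rose from 118, 79.9 and 77.7 CPM to 249, 160 and 155 CPM.

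**Figure D4:**
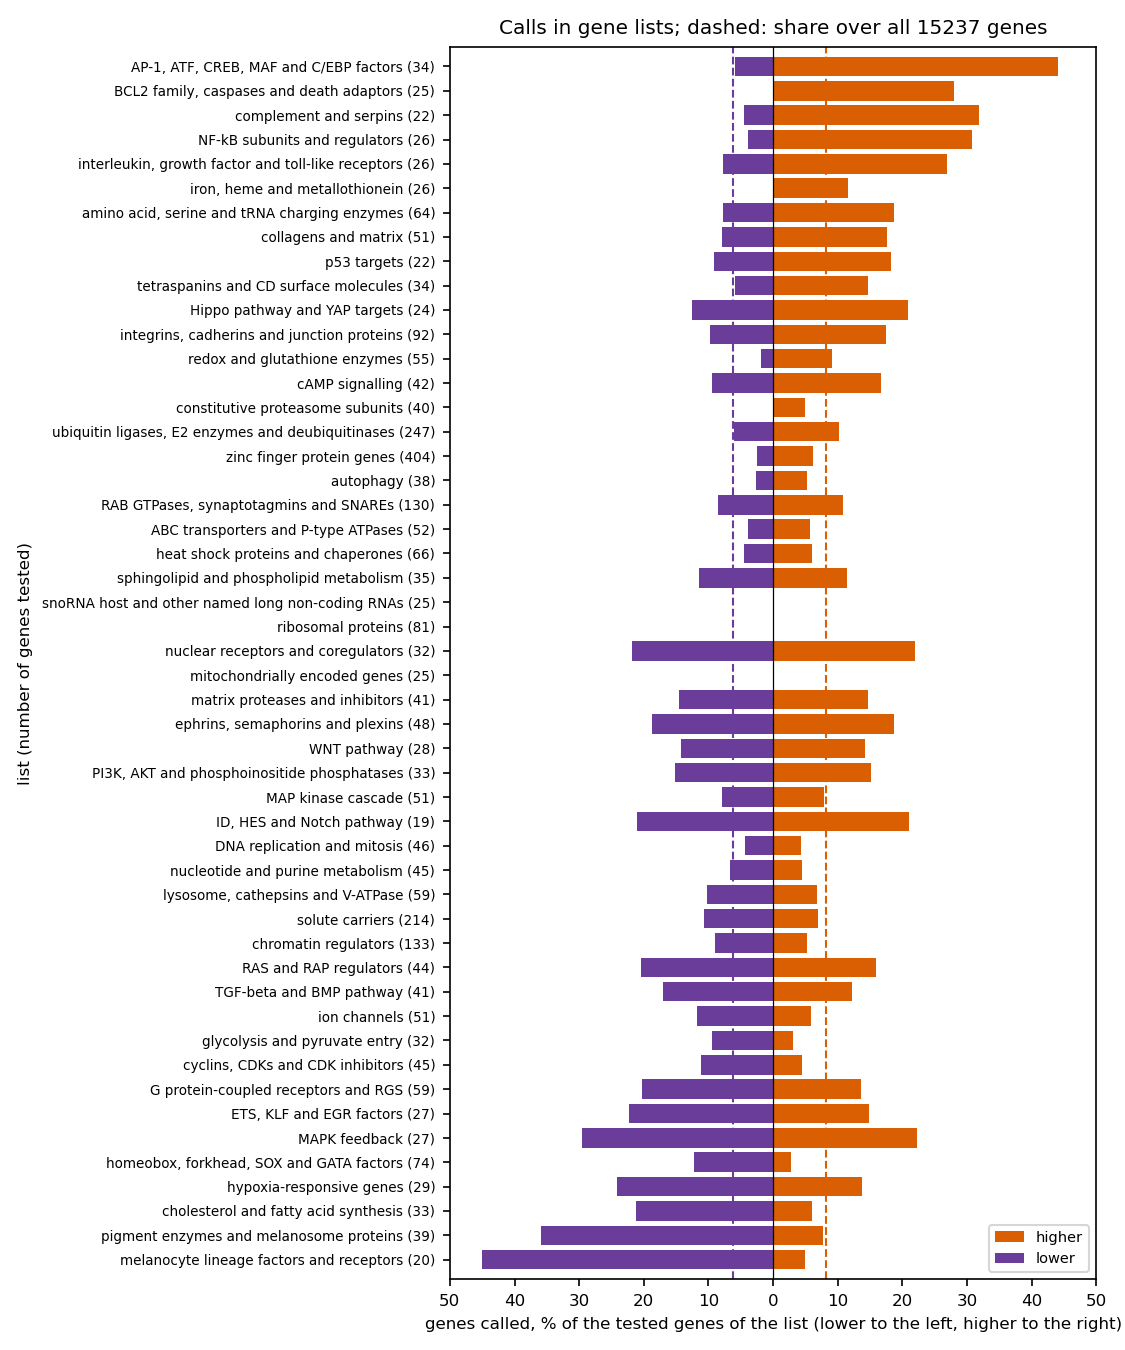
Genes called lower (left) and higher (right) as a percentage of the tested genes of each list reported outside the classical interferon lists, for those with at least 19 tested genes; dashed lines give the shares over all genes, 6.14% and 8.12%. The AP-1, ATF and C/EBP list has the longest bar to the right (44.1% of 34) and the melanocyte factor list the longest to the left (45.0% of 20).

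Mitf, the lineage regulator, fell. It was at 753, 884 and 783 CPM in media and at 266, 374 and 366 CPM with IFNg (log2 fold change -1.28, SE 0.07, adjusted p 2.13e-11), so that each IFNg library had less than any media library. Of 20 melanocyte lineage factors and receptors tested 9 fell and 1, the melanocortin receptor gene Mc1r, rose, with a median log2 fold change of -0.22 over the list. The rise of Mc1r (0.32, SE 0.08) missed the test without the media library of number 3, at an adjusted p of 0.0508. Tbx2, a T-box factor gene of the pigment lineage, fell from 142, 133 and 159 CPM to 80.7, 70.5 and 88.8 CPM (-0.86, SE 0.07). Sox5 fell from 93.0, 88.6 and 89.7 CPM to 42.3, 54.6 and 65.5 CPM, and this fall differed between numbers (adjusted p of the difference 0.0178). Sox4 fell from between 109 and 114 CPM to between 71.7 and 81.4 CPM (-0.52, SE 0.07). Sox10, which encodes the neural crest factor that drives Mitf, fell less, from 734, 929 and 1010 CPM to 622, 744 and 795 CPM (-0.30, SE 0.06). Met, which is printed above for its E-box, differed widely between numbers in media, at 167, 484 and 932 CPM, and fell in each, to 125, 297 and 655 CPM (-0.55, SE 0.07).

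Of 39 genes for pigment enzymes and melanosome proteins 14 fell and 3 rose. Those described here move or dock the organelle, make pigment or carry ions. Rab3a, which encodes a GTPase of regulated exocytosis, fell from 6.65, 10.4 and 11.2 CPM to 1.84, 2.19 and 2.90 CPM (log2 fold change -2.01, SE 0.20, adjusted p 1.37e-07). Rab32, which routes enzymes to melanosomes, fell from 37.7, 46.0 and 37.4 CPM to 23.4, 27.5 and 21.6 CPM (-0.74, SE 0.08). Lyst, the gene of the beige mouse, fell from between 160 and 189 CPM to between 115 and 147 CPM (-0.45, SE 0.06). Trpm1, a channel gene and known target of MITF, fell in each number, from 277, 207 and 169 CPM to 220, 145 and 123 CPM (-0.43, SE 0.06). The pigment enzyme genes Tyrp1 and Dct and the fibril gene Pmel did not pass the test: Tyrp1 was at 7224, 6765 and 7993 CPM in media and 7249, 6840 and 6892 CPM with IFNg, with log2 fold changes of -0.07 (SE 0.06) for Tyrp1, -0.17 (SE 0.06) for Dct and -0.06 (SE 0.06) for Pmel. Tyr, the tyrosinase gene, fell by a log2 fold change of -0.33 (SE 0.06). Tyr, Tyrp1, Dct and Pmel were singled out as the textbook pigment genes.

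Outside the pigment lineage, the gap junction gene Gjb2, which encodes connexin 26, had the largest fall at 100 CPM or more among genes with groups apart, predicted genes left out, from 159, 130 and 203 CPM to 59.2, 43.6 and 76.3 CPM (log2 fold change -1.47, SE 0.07, adjusted p 1.05e-12). The groups did not overlap. Other connexin genes of the junction list, Gjc3 and Gja3, fell too, by log2 fold changes of -0.83 (SE 0.07) and -0.85 (SE 0.07), and of the 92 junction, integrin and cadherin genes tested 9 fell and 16 rose. St3gal1, which encodes a sialyltransferase that caps O-linked glycans, fell from 486, 370 and 415 CPM to 218, 135 and 181 CPM (-1.27, SE 0.07). Zfp469, which the annotation used classes as a long non-coding RNA gene, fell from 172, 119 and 135 CPM to 75.3, 45.8 and 57.0 CPM (-1.27, SE 0.07). Bahcc1, a gene for a chromatin-associated protein, fell from 144, 180 and 151 CPM to 59.5, 99.5 and 65.3 CPM (-1.11, SE 0.07). Adam19, a membrane metalloproteinase gene, fell in each number, from 13.9, 7.40 and 7.22 CPM to 6.85, 2.56 and 2.61 CPM (-1.30, SE 0.18), and its IFNg library of number 3 lay just below the lowest media library.

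Rapgef3, which encodes EPAC1, the exchange factor through which cAMP acts on RAP, fell from 55.3, 59.4 and 57.8 CPM to 21.9, 24.3 and 25.2 CPM (log2 fold change -1.28, SE 0.08, adjusted p 9.43e-11). Values within each group were close, and the groups lay far apart. Of 59 G protein-coupled receptors and RGS genes tested 12 fell and 8 rose. Prokr1, the receptor gene for prokineticins, fell from 5.71, 8.27 and 8.78 CPM to 1.19, 4.26 and 4.26 CPM, Gpr37 from 7.60, 8.87 and 15.6 CPM to 2.83, 3.65 and 7.46 CPM, and Adgrg1 from between 216 and 299 CPM to between 155 and 182 CPM. Of 41 genes of the TGF-beta and BMP pathway 7 fell (17.1%) and 5 rose (12.2%). Smad3, the transcriptional effector of TGF-beta, fell from 63.5, 72.8 and 51.6 CPM to 36.7, 28.4 and 29.4 CPM (-0.99, SE 0.10, adjusted p 1.03e-07), and Smurf1, a ubiquitin ligase that marks SMAD proteins, rose from 85.3, 54.7 and 76.05 CPM to 157, 121 and 132 CPM (0.94, SE 0.07). Dact3, a gene for an inhibitor of WNT signalling, fell from between 9.23 and 11.5 CPM to between 3.26 and 6.15 CPM, and Stum from between 18.5 and 31.7 CPM to between 8.23 and 11.9 CPM.

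Of 18 circadian clock genes tested 5 fell and 1 rose. Bhlhe41 fell from 273, 293 and 297 CPM to 123, 107 and 139 CPM (log2 fold change -1.24, SE 0.08, adjusted p 7.92e-11), and Csnk1e, a kinase gene of the clock, from 90.8, 126 and 105 CPM to 63.5, 72.5 and 67.0 CPM (-0.66, SE 0.07). Tef, a clock output factor, fell from between 59.0 and 70.5 CPM to between 39.2 and 46.5 CPM. The others that fell were Bhlhe40, the paralogue of Bhlhe41 (-0.43, SE 0.07), and Hlf (-1.08, SE 0.20). Arntl2, a paralogue of the core activator, was the 1 that rose, from between 0.879 and 1.48 CPM to 2.90, 7.80 and 4.56 CPM. Klf15 fell from 19.6, 20.05 and 31.5 CPM to 8.43, 7.49 and 17.9 CPM (-1.12, SE 0.13). Of 10 members of the MYC and MAX network 5 fell and 1, Max, rose (0.24, SE 0.06). The adjusted p of Max was 0.116 without the media library of number 4. Myc fell in each number, from 78.6, 132 and 141 CPM to 56.3, 71.8 and 94.1 CPM (-0.66, SE 0.09), with overlap of the groups. Of 45 cyclins, CDKs and inhibitors 5 fell (11.1%) and 2 rose (4.44%). Cdk2, whose gene overlaps the far more abundant Pmel on the opposite strand so that reads of the pair cannot be told apart where they overlap, fell from 417, 430 and 366 CPM to 285, 231 and 230 CPM (-0.71, SE 0.07). Ccnd1, the cyclin D1 gene, fell in each number, from 258, 127 and 236 CPM to 199, 89.4 and 176 CPM (-0.43, SE 0.06).

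Of 33 genes of cholesterol and fatty acid synthesis 7 fell, Insig1 and the elongase gene Elovl6 among them by log2 fold changes of -0.42 (SE 0.06) and -0.46 (SE 0.08), and 2 rose. Of 29 hypoxia-responsive genes 7 fell and 4 rose: Ndrg1 fell from 162, 160 and 149 CPM to 62.2, 59.5 and 78.5 CPM (-1.25, SE 0.09), whereas Ero1l, an oxidase gene of the endoplasmic reticulum, rose from 371, 271 and 254 CPM to 929, 581 and 545 CPM (1.17, SE 0.06). Of 214 solute carriers 23 fell and 15 rose, which is 10.7% and 7.01%. Over all genes the shares were 6.14% and 8.12%, so falls were more frequent in this list and rises were near the share over all genes. In 3 lists no gene was called in either direction by edgeR, DESeq2 or limma-voom: 81 ribosomal protein genes, of which 1 had an unadjusted p below 0.05, 25 mitochondrially encoded genes, of which 3 had, and 25 snoRNA host and other long non-coding RNA genes, of which 2 had.

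**Figure D5:**
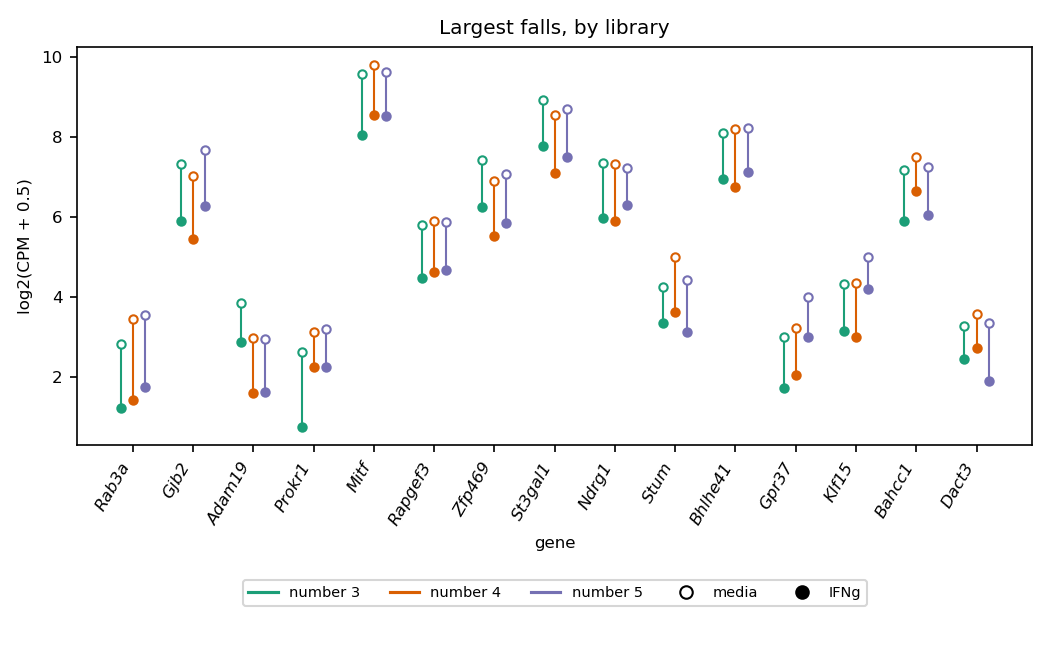
Levels as log2(CPM + 0.5) (vertical axis) of the 15 genes with the largest falls among called genes of at least 5 CPM with groups apart, predicted genes, Riken clones and pseudogenes left out, in the media library (open) and the IFNg library (filled) of each number, joined within the number. The genes were chosen with their groups apart, so the gap between open and filled points is fixed by the choice; the falls of Gjb2, Mitf, Rapgef3, Zfp469 and St3gal1 are of like length in the 3 numbers.

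Many of these calls rest on the comparison within a number, since the numbers differed from each other in level. Without the number term in the model, the rises among the genes named in these results of Fosl2, Bcl3, Nfkbiz, Tbk1, Map3k8, Bak1, Max, Mc1r, Col9a3, Osmr, Notch1, Gclm and Arntl2 and the falls of Ifngr2, Ifi30, Procr, Mafg, Jund, Traf3, Sox10, Tyr, Bhlhe40, Hlf, Gm24305, Adam19, Prokr1, Gpr37, Klf15, Sema6a, Maml3, Gja3, Gjc3, Elk3, Sox5, Met, Lyst, Trpm1, Adgrg1, Tef, Myc, Ccnd1, Insig1 and Elovl6 did not pass the test. The calls of Mitf, Gjb2, Rab3a, Rapgef3, St3gal1, Smad3, Bhlhe41, Tbx2 and Nr4a3 did. Rises in the AP-1, ATF and C/EBP list numbered 7 without that term, and in the NF-kB list 1. Falls numbered 3 among melanocyte lineage factors and receptors and 2 among pigment enzymes and melanosome proteins. Over all genes 427 rose and 76 fell without it. The libraries with IFNg and FK866 had means close to those with IFNg alone for several of the named genes. These means were 377 CPM for Mitf, 59.0 CPM for Gjb2 and 20.2 CPM for Rapgef3. Among the rises they were 338 CPM for Thbs1, 85.5 CPM for Tcf7 and 33.7 CPM for Bcl6. The mean of Rab3a was 3.69 CPM with IFNg and FK866 against 2.31 CPM with IFNg alone, and was higher in each number. Both comparisons share the media libraries.

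Some rises outside the lists lay beside classical ones. Of the 335 genes outside the lists that rose at least 2-fold, 20 lay within 10 kb of a classical gene that rose at least 2-fold, which is 5.97%, and 9 of these overlapped it. Of the 933 genes that fell 5 did (0.536%), and of 12983 genes not called 71 did (0.547%). C2, a complement gene 86 bases from Cfb, rose from 13.6, 11.5 and 12.7 CPM to 42.7, 35.4 and 21.5 CPM. Col9a3, named after its place was seen, lies 1954 bases from Ogfr and rose by a log2 fold change of 1.21 (SE 0.22). The lincRNA 9330175E14Rik, chosen likewise, overlaps Nlrc5 on the opposite strand and rose from at most 0.179 CPM to 16.9, 22 and 19.8 CPM, where reads of the pair cannot be told apart.

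The response itself differed between the numbers in 116 genes (0.761%), by a test of the interaction of number and IFNg across the 9 libraries, in which each number has 1 media library. Of these 116 genes 50 were also called for IFNg. By class, 65 were protein coding and 34 were unverified gene models (TEC in the annotation), a class with 1040 of the 15237 genes tested. Fn1, which encodes the matrix protein fibronectin, rose from 143 to 550 CPM in number 3 and from 208 to 746 CPM in number 4, but from 127 to 191 CPM in number 5 (adjusted p of the difference 1.12e-08). The IFNg library of number 5 lay below the media library of number 4, so the groups overlapped, and the pooled log2 fold change was 1.43 (SE 0.19). Hk2, which encodes the glycolytic enzyme hexokinase 2, was at 153 CPM in media and 291 CPM with IFNg in number 3, at 117 and 102 CPM in number 4 and at 126 and 116 CPM in number 5. It did not pass the test for IFNg (0.19, SE 0.14). Ndrg1 fell in all 3 numbers, with an adjusted p of the difference of 0.0157. The snRNA gene Gm24305, singled out for its level, fell in number 3 from 457 to 30.02 CPM and in number 4 from 584 to 20.9 CPM, while number 5 went from 741 to 793 CPM; its pooled log2 fold change was -2.75 (SE 0.80, adjusted p 0.0217; adjusted p of the difference 0.00263). The libraries of this gene with IFNg and FK866, which enter both tests, were at 483, 21.1 and 667 CPM in numbers 3, 4 and 5. In number 3 this was near the media level, unlike the library with IFNg alone. The pooled call was lost without the media library of number 4, at -1.05, and the adjusted p was 0.112 in DESeq2.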

How the data were processed

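Bulk poly(A) RNA libraries of B16F10 cells were compared, 3 kept in media and 3 given IFNg. The authors deposited raw gene counts per library; the submitters' processing notes name cutadapt 1.16, STAR 2.7.6a, featureCounts 1.6.3, DESeq2 1.30.1 and the GRCm38 or mm10 build, without role or order. For the annotation release, the strand setting and duplicate removal the entry is: not given in the sources used here. Names and gene classes come from GENCODE M21, which matched 55227 of 55487 genes.

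The test was edgeR 4.0.16 (R 4.3.3) with its quasi-likelihood F test, TMM scaling, the filterByExpr filter by group and a model of group and number over all 9 libraries (totals 15317003 to 18466972 counts), Benjamini-Hochberg adjusted over 15237 genes. CPM values are scaled by TMM, and differences within a number use log2(CPM + 0.5). Libraries of the same number deviated together from their group means (correlations 0.555 to 0.728 in 9 pairs), so the number was kept as a block. In 18 pairs of unlike number the correlations were -0.477 to -0.112. Deviations from a group mean cancel within the group, so these negative values are no separate support for the block. The interaction model tested the number against IFNg given, with FK866 as an additive term.

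The gene lists (8 classical, 55 other and 5 of cell type markers) were chosen with earlier results of these data known. A further list, of histone genes, was not used because its name pattern missed most of them. The result of another list is not reported here. Genes named were Irf1, Cd274 and Mitf, then outside the classical lists the 15 largest rises and falls among called genes of at least 5 CPM with the same direction in all numbers and groups apart, leaving out predicted genes, Riken clones and pseudogenes, the 5 largest each way of at least 100 CPM, up to 4 of smallest p per list and the 6 of smallest interaction p. Other list members and the genes said to be singled out were picked with their values in view, like the search for neighbouring genes within 10 kb and the printed promoters. Promoters were found for 185 of 219 named genes that were called. The fit was tested on simulated counts. Alternatives were the model without the block, the 6 libraries alone, DESeq2 1.42.0, limma-voom (limma 3.58.1), other scalings and filters, and leaving out each library or number.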

Additional observations from a re-analysis of the deposited data

Results flagged for a closer look

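In 6 genes of at least 5 CPM the response to IFNg differed most between the numbers, by the interaction test of edgeR over 9 libraries, in which each number has a single media library. Hist1h2ak, a replication-dependent histone gene, was at 0.690, 78.7 and 86.9 CPM in media and at 51.9, 65.4 and 117 CPM with IFNg in numbers 3, 4 and 5 (adjusted p 1.08e-14). Hist1h2an, a like gene, was at 0, 14.0 and 44.6 CPM in media and at 20.5, 15.2 and 58.2 CPM with IFNg (adjusted p 4.03e-06). In both, the media library of number 3 stood far below the rest. These genes are near-identical copies whose reads can be split by the counting. Fn1 differed with an adjusted p of 1.12e-08, through a small rise in number 5, and Hk2 with 4.19e-06, through a rise in number 3 alone. Tap1, the peptide transporter gene of antigen presentation, rose from 5.34, 0.712 and 0.418 CPM to 176, 117 and 139 CPM, with its media level highest in number 3 (adjusted p 1.30e-05). Gm37589, an unverified gene model, was at 26.6, 9.92 and 16.7 CPM in media and at 13.0, 15.7 and 22.7 CPM with IFNg (adjusted p 1.30e-05).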

How the results depend on the processing

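The block for the number mattered most. With no replicate block, 427 genes rose and 76 fell, 325 and 24 of them at least 2-fold, and outside the classical lists 275 rose and 76 fell. With a mean of at least 5 CPM required, 282 rose and 32 fell at least 2-fold. The count of genes whose response differed between numbers was 359 with no low-count filter, 68 at a mean of at least 5 CPM, and 65 for number 3 against the others.

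Leaving out 1 library in turn gave 978 to 1350 rises and 588 to 1054 falls, of which 439 to 538 and 66 to 115 were at least 2-fold, and outside the lists 781 to 1144 rises and 587 to 1050 falls. The fewest falls came without the IFNg library of number 3. For the interaction count, only the libraries with IFNg and FK866 were left out in turn, and no media or IFNg library was. It ran from 140 to 366, the latter without the IFNg and FK866 library of number 5. Leaving out a whole number gave 867 to 1152 rises and 535 to 783 falls, 394 to 513 and 52 to 90 at least 2-fold, and outside the lists 678 to 953 and 535 to 781, each lowest without number 4. The log2 fold change of Tyrp1, which was not called, ran from -0.1144 to 0.0288 when 1 library was left out (the lowest without the media library of number 3, the highest without that of number 5), and was 0.017 without number 5. The other counts stayed within 1.5 times under DESeq2, limma-voom, the other scalings and the 6 libraries alone. For most of these the cause was not tested; leaving out libraries leaves fewer to estimate the spread.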

Other observations

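Over the 1040 unverified gene models (class TEC in the annotation) that were tested, the median log2 difference of IFNg over media was -0.25 in number 3, 0.14 in number 4 and 0.18 in number 5. Their part in the falls of low-level non-coding genes was not tested.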
